A study of Mus musculus with 16 samples.

Results

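The 10 polyamine metabolism genes described here are Odc1, Oaz1, Oaz2, Azin1, Amd1, Amd2, Srm, Sms, Smox and Sat1. They were taken by name from the 24454 genes of the count table as members of the pathway, and all 10 were found. The choice was made with earlier results of these data known. The counts and medians of these genes, set below beside those of all genes, are therefore a description and not a test. The counts of Amd1 and Amd2 were equal or nearly so in every library, so that the table is read here as 9 distinct measurements. RNA was sequenced from gastrocnemius muscle of 16 mice aged 3 months, with a separate library for each mouse. HSALR mice are homozygous mice of the LR20b line on the FVB/N background. They carry the gene of human skeletal actin with a long CTG repeat, which is expressed in skeletal muscle, and serve as a model of myotonic dystrophy type I. All HSALR mice belong to this single transgenic line, so that effects of the repeat and of the place of insertion cannot be told apart. FVB mice without the transgene were the controls. Mice of each genotype had received vehicle (labelled CTRL) or AICAR, an activator of AMP-activated protein kinase, at 500 mg/kg for 7 days. There were 3 FVB mice after vehicle, 3 FVB mice after AICAR, 5 HSALR mice after vehicle and 5 HSALR mice after AICAR.

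Polyamines are small, positively charged molecules that bind nucleic acids and are needed for growth and for protein synthesis. Odc1, ornithine decarboxylase, makes putrescine from ornithine. Amd1 and Amd2 encode S-adenosylmethionine decarboxylase, which provides the aminopropyl groups that Srm, spermidine synthase, and Sms, spermine synthase, add to putrescine and to spermidine. Smox, spermine oxidase, turns spermine back into spermidine, and Sat1 acetylates spermidine and spermine for export or oxidation. The antizymes Oaz1 and Oaz2 bind ornithine decarboxylase and bring it to the proteasome, while the antizyme inhibitor Azin1 binds antizymes in its place. Much of this control acts on translation and protein stability, and in skeletal muscle the pathway is known to respond to growth and to wasting. The values below are levels of RNA only.

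The sequences of the Amd1 and Amd2 transcripts are shown first because they decide what the count table can say about the 2 genes. Amd1 lies on chromosome 10 (chr10:40287458-40302188 of GRCm38.p6, minus strand) and its main GENCODE transcript has 8 exons, while Amd2 (chr10:35708691-35711891, minus strand) is annotated with 1 exon. Of 3204 aligned bases, 3190 (99.6%) were identical. The reading frames of both have 1005 bases and differ at a single base, G1124C, counted from 1 at the 5′ end of the Amd1 transcript with the base of Amd1 first. The windows around this base, which is in capitals, come from the coding part of the transcripts (Amd1 chr10:40290156-40290216 and Amd2 chr10:35710734-35710794, both minus strand of GRCm38).
Amd1 coding window: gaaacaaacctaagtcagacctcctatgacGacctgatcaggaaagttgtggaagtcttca
Amd2 coding window: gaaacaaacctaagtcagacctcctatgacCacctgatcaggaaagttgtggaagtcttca
No other difference between the genes lies in these windows, so that a read falling here tells them apart only through that base.

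The loci do differ before the start of transcription. The RefSeq windows from 120 bases before to 30 bases after the annotated start are given with the longest stretch they share in capitals (Amd1 chr10:40302159-40302308 and Amd2 chr10:35711862-35712011, both minus strand of GRCm38.p6).
Amd1 start window: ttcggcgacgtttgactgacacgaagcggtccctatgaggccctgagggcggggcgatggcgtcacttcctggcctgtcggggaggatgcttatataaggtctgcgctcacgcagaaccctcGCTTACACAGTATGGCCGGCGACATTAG
Amd2 start window: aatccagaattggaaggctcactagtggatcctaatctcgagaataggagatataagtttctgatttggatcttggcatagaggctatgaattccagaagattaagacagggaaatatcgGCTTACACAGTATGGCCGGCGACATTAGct
The shared stretch of 28 bases lies in the transcribed part. It ends at the edge of the Amd1 window, so that its length is set by the window. Before the start only 36 of 120 bases were the same at the same place. The stretch holds most of a short upstream reading frame of 6 codons, through which polyamines are known to repress translation of this mRNA. This frame had the same letters in both genes, and its stop codon is in capitals (Amd1 chr10:40302155-40302175 and Amd2 chr10:35711860-35711880).
Amd1 upstream frame: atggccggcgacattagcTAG
Amd2 upstream frame: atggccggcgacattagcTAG

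In the count table the rows of Amd1 and Amd2 had equal counts in 8 of 16 libraries and differed by at most 5 reads in the others, at counts between 4923 and 12258 for Amd1. Among the 13001 genes with a mean of at least 50 reads, 44 had the same count as some other gene in all 16 libraries. Amd1 and Amd2 are therefore given as 1 measurement, Amd1/Amd2, and which of the loci the reads came from cannot be told apart. The study's methods keep 1 location for each read, and how near-equal counts arose under that setting is not given in the sources used here. Oaz1 has a related limit. The row of its pseudogene Oaz1-ps had between 80.2% and 83.2% as many reads as the Oaz1 row in every library, so that reads may be shared between them, and the level of Oaz1 is uncertain to that extent. In the annotation Odc1, Oaz1, Azin1 and Smox overlap other genes (Gm22748, Mir1982, Mir6951 and Gm30679), and whether counting used the strand is not given in the sources used here.

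The antizymes are known for a programmed frameshift, in which the ribosome passes the stop codon of a short first frame by moving on 1 base, and polyamines increase its frequency. The site is shown with the stop codon and its neighbours in capitals, since the RNA levels reported here do not measure this step. The windows come from the transcripts Oaz1-205 (chr10:80828272-80828318, plus strand of GRCm38) and Oaz2-203 (chr9:65686249-65686295, plus strand).
Oaz1 frameshift window: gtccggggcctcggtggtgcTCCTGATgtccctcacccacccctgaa
Oaz2 frameshift window: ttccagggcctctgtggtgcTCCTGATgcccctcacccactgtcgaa
The windows were identical at 39 of 47 bases.

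Between 64890014 and 81987726 reads were counted on genes in each library. Levels are given as normalised CPM, a count scaled to the size of its library with edgeR's TMM factor, and comparisons between genes use CPM per kilobase of the gene length in the table. All 10 genes were among the 15487 that passed the filter on low counts. For differences, the quasi-likelihood test of edgeR was used, and p-values were adjusted by the Benjamini-Hochberg method over these genes with a threshold of 0.05. The 8 markers of skeletal muscle fibres summed to at least 131565 CPM in every library. Of these, 3 were called higher in HSALR than in FVB mice after vehicle, and 3 higher and 1 lower after AICAR. For AICAR, 1 was called lower in HSALR mice and 0 in FVB mice. Markers of epidermis differed between groups: Krt14, a keratin of skin, was above 1 CPM in 4 of 5 HSALR mice after vehicle, in 1 of 3 FVB mice after vehicle, in 1 of 3 FVB mice after AICAR and in 0 of 5 HSALR mice after AICAR. The 5 endothelial markers summed to 163 to 213 CPM in HSALR mice after vehicle and 204 to 228 CPM after AICAR. In FVB mice their sums were 247 to 274 CPM after vehicle and 254 to 273 CPM after AICAR. All 5 were called lower in HSALR than in FVB mice after vehicle and 2 after AICAR. For AICAR, 3 of them were called higher in HSALR mice and 0 in FVB mice. Of 5 fibroblast markers 3 were called lower for AICAR in HSALR mice, where their sums were 1236 to 1657 CPM after vehicle and 959 to 1285 CPM after AICAR. Of 8 macrophage markers 2 were called higher in HSALR mice after vehicle, with sums of 176 to 244 CPM in FVB and 194 to 275 CPM in HSALR mice, and for AICAR in HSALR mice 2 were higher and 1 lower. Of 5 satellite cell markers 1 was called higher in HSALR than in FVB mice after vehicle and 2 after AICAR, and 1 was called lower for AICAR in each genotype. The sums of 5 red blood cell markers were 1219 to 3122 CPM in FVB mice after vehicle and 514 to 865 CPM after AICAR, without overlap. In bulk muscle, fewer cells of a type and less RNA per cell cannot be told apart. The part of these markers in the results below was not tested beyond the fits given beside them.

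Per kilobase, the antizymes were the most abundant of the 9 measurements in FVB muscle after vehicle. Oaz2 was at 100.2 ± 5.88 and Oaz1 at 96.8 ± 2.52 CPM per kilobase (SD, n = 3), and these neighbours overlapped. Amd1/Amd2 followed at 49.0 ± 1.37 for the Amd1 row, then Sms at 28.9 ± 1.12, Odc1 at 24.9 ± 3.97 and Smox at 24.2 ± 6.82 CPM per kilobase. Odc1 and Smox overlapped with each other and with Sms. The lowest were Azin1 at 13.5 ± 1.77, Sat1 at 11.1 ± 1.03 and Srm at 5.66 ± 0.52 CPM per kilobase, of which Azin1 and Sat1 overlapped. In HSALR muscle after vehicle the order differed: Oaz1 (112 ± 5.99) and Oaz2 (108 ± 10.52) changed places but overlapped, Odc1 (50.9 ± 3.66, SD, n = 5) stood next after the antizymes, followed by Azin1 at 26.4 ± 3.97 and Amd1/Amd2 at 25.2 ± 3.04 CPM per kilobase, which overlapped, and Smox at 12.6 ± 3.33 stood below Sat1 at 16.6 ± 2.09, again with overlap.

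**Figure D1:**
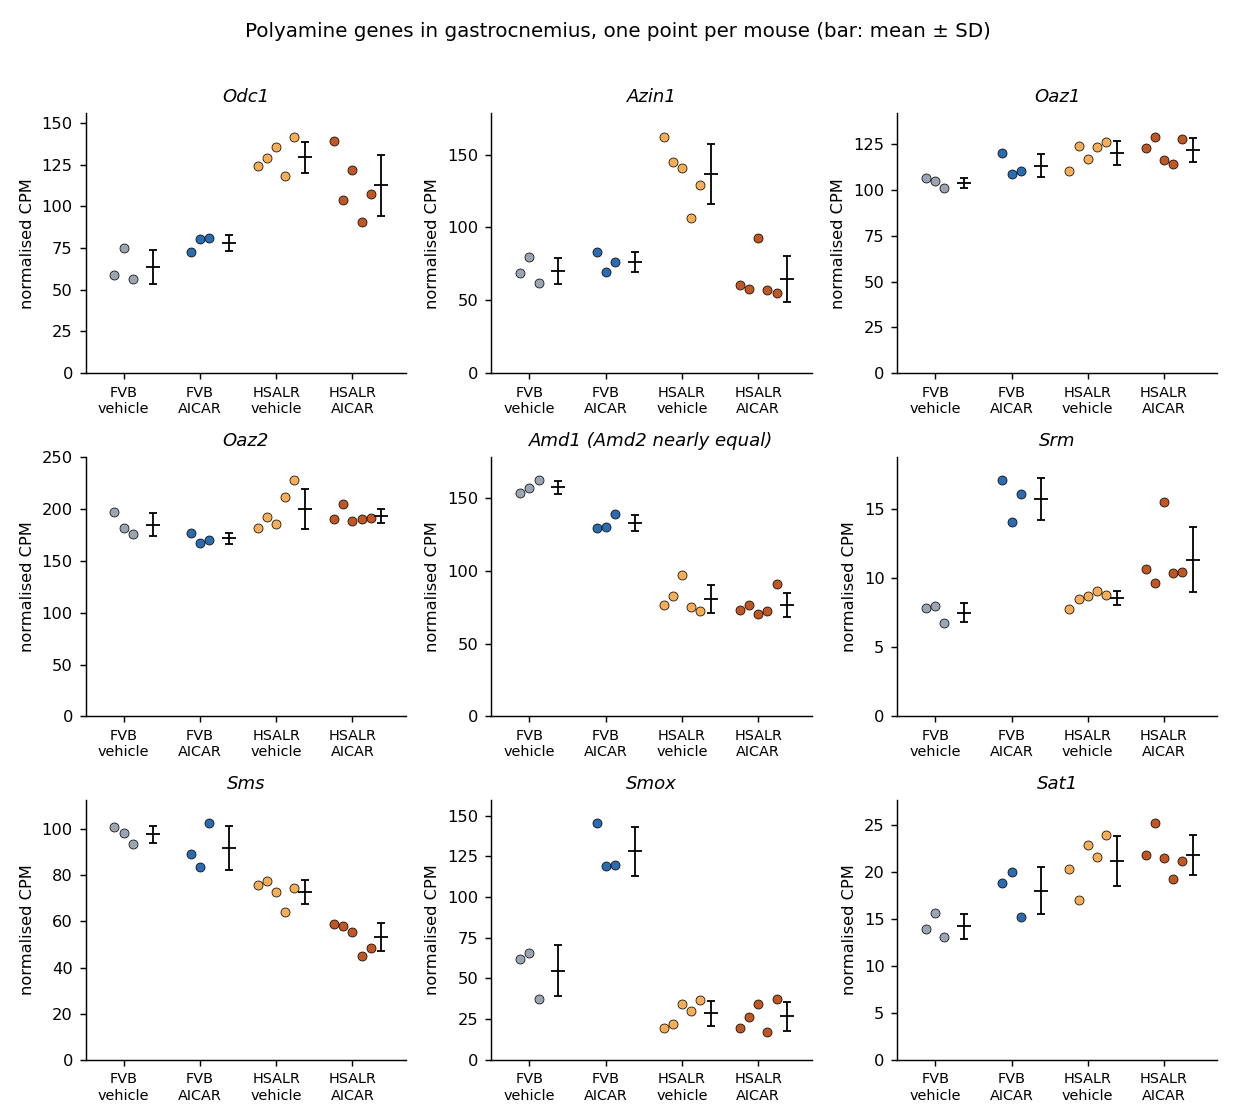
Normalised CPM (vertical axes, from 0) of 9 polyamine genes in the 4 groups, with a point for each mouse and a bar for the mean ± SD. Odc1 was at 118 CPM or more in all HSALR mice after vehicle, Azin1 was at most at 93.0 CPM in HSALR mice after AICAR, and Smox reached 119 CPM only in FVB mice after AICAR.

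The first comparison asked how HSALR muscle differed from FVB muscle after vehicle. Odc1, the gene of the first step, was 2.04 times and Azin1 1.95 times as high in HSALR muscle, and Sat1 and Oaz1 were also higher. Amd1/Amd2 and Smox were at 0.51 and 0.52 times the level of FVB muscle, and Sms was lower as well, at 0.75 times. Of the 10 genes 4 were called higher and 4 lower, where 15.4% of all genes tested were called higher and 11.5% lower. With Amd1 and Amd2 counted once, 4 of 9 were higher and 3 lower. The median log2 fold change of the 10 genes was 0.15, beside 0.0097 over all genes tested, since higher and lower members offset each other. The middle value of the 9 measurements was that of Srm, 0.19.

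After AICAR, HSALR muscle differed from FVB muscle in Odc1, which was again higher, and in Amd1/Amd2, Srm, Sms and Smox, which were lower. The call was 1 higher and 5 lower of 10, or 4 lower of 9 with Amd1 and Amd2 counted once, beside 12.2% higher and 9.64% lower over all genes. The median log2 fold change of the 10 genes was -0.36, beside 0.0037 over all genes. The middle value of the 9 measurements was that of Azin1, -0.24. This comparison has no library in common with the comparison after vehicle.

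The next comparisons set AICAR against vehicle within each genotype. In FVB mice, Srm and Smox rose. None was called lower with edgeR or DESeq2, where Amd1 and Amd2 alone were lower at an unadjusted p under 0.05, beside 8.40% higher and 4.77% lower over all genes. In HSALR mice, Azin1 and Sms fell and Srm rose, beside 13.7% higher and 13.0% lower over all genes. Scaling by library totals alone shifted these backgrounds: the share of called genes that were higher was 50.7% in FVB mice and 30.9% in HSALR mice with that scaling, in place of 63.8% and 51.3%. Each of the 2 comparisons shares its vehicle or AICAR mice with a comparison between genotypes, so that their values are set side by side and not counted as separate evidence. In the test of the difference between the AICAR effects of the genotypes, 1 of the 10 genes, Azin1, passed the threshold with edgeR, beside 0.691% of all genes in either direction. An unadjusted p under 0.05 was found for 5 of the 10 and for 2324 of all 15487 genes, and DESeq2 called 3 of the 10 and 536 of the 15487.

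**Figure D2:**
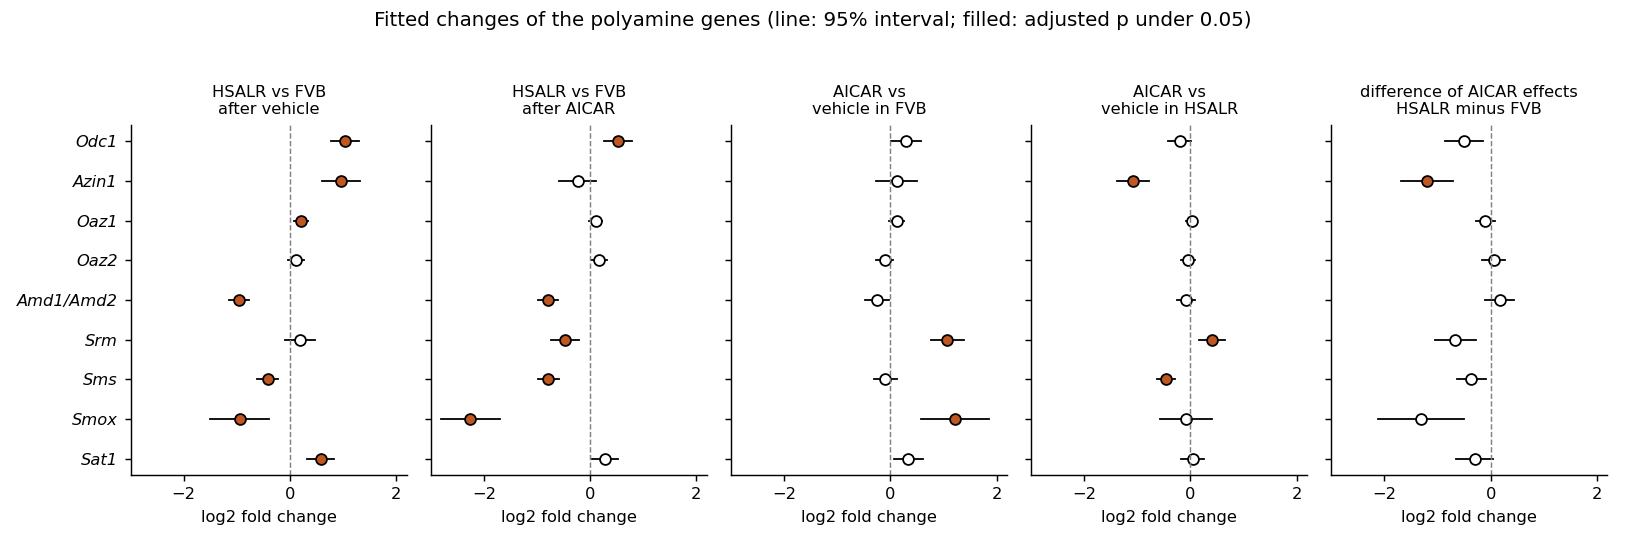
Log2 fold changes (horizontal axes) of 9 polyamine genes in the 5 comparisons, with lines for the 95% interval of edgeR's fit and filled circles for an adjusted p under 0.05. Smox after AICAR is the farthest from 0 at -2.25, and in the difference of the AICAR effects only Azin1 is filled.

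Odc1 encodes the enzyme that starts polyamine synthesis. Its level was 58.9, 75.1 and 56.5 CPM in the 3 FVB mice after vehicle and 72.6, 80.7 and 80.9 CPM in the 3 FVB mice after AICAR. In HSALR mice it was 124, 129, 135, 118 and 142 CPM after vehicle and 139, 104, 122, 90.5 and 108 CPM after AICAR. Every HSALR mouse was above every FVB mouse, with or without AICAR. After vehicle the log2 fold change was 1.03 (SE 0.12, adjusted p = 2.97e-05 by edgeR's quasi-likelihood test). After AICAR it was 0.53 (SE 0.12, adjusted p = 0.0067). AICAR itself gave -0.20 (SE 0.10, adjusted p = 0.17) in HSALR mice, which did not pass, although it passed at -0.29 (adjusted p = 0.045) without mouse S454 of that group and at -0.28 (adjusted p = 0.0496) with library totals in place of TMM. In FVB mice the value was 0.30 (SE 0.13, adjusted p = 0.16).

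Azin1, whose product holds antizymes away from ornithine decarboxylase, was the only member called by edgeR's fit of all 16 libraries in the difference between the AICAR effects. FVB mice had 68.9, 79.9 and 61.7 CPM after vehicle and 83.1, 69.6 and 76.4 CPM after AICAR. HSALR mice had 162, 145, 141, 107 and 129 CPM after vehicle. After AICAR, HSALR mice had 60.5, 57.9, 93.0, 57.3 and 55.1 CPM. The vehicle-treated HSALR mice stood above all others without overlap, and the AICAR-treated HSALR mice, apart from mouse S460 at 93.0 CPM, lay below the FVB mice. The log2 fold change was 0.96 (SE 0.17, adjusted p = 6.46e-04 by edgeR) in HSALR against FVB mice after vehicle. AICAR lowered it in HSALR mice by a log2 fold change of -1.08 (SE 0.14, adjusted p = 8.94e-05). These values were 1.04 and -1.25 with the epidermal score as a covariate. They were 1.12 and -1.33 without the 6 libraries with Krt14 above 1 CPM, with adjusted p of 0.038 and 0.012, a fit chosen after the data were seen that keeps a single vehicle-treated HSALR library and assumes that it varies like the others.

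In FVB mice AICAR gave a log2 fold change of 0.12 for Azin1 (SE 0.18, adjusted p = 0.71 by edgeR's quasi-likelihood test). The difference between the AICAR effects of the genotypes, HSALR minus FVB, was -1.20 (SE 0.23, adjusted p = 0.029). This call depended on single libraries. The difference lay between -1.37 and -1.11 when each mouse was left out in turn, but its adjusted p rose to between 0.051 and 0.090 without any of the mice S445 (-1.19) or S450 (-1.11) of FVB after vehicle, S447 (-1.13), S448 (-1.25) or S449 (-1.20) of FVB after AICAR, S452 (-1.17) of HSALR after vehicle, and S454 (-1.18), S455 (-1.16), S462 (-1.16) or S463 (-1.15) of HSALR after AICAR. Without mouse S460 the adjusted p was 0.0012. Without the 6 libraries with Krt14 the difference was -1.42 with an adjusted p of 0.22. After AICAR, HSALR and FVB mice differed in Azin1 by -0.24 (SE 0.16, adjusted p = 0.31), and by -0.40 (adjusted p = 0.023) without mouse S460.

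The antizymes themselves changed little. Oaz1 lay between 101 and 106 CPM in FVB mice after vehicle and between 110 and 126 CPM in HSALR mice after vehicle, without overlap. The log2 fold change was 0.21 (SE 0.059, adjusted p = 0.016 by edgeR), and 0.19 (adjusted p = 0.069) without FVB mouse S450. Without the 6 libraries with Krt14 it was 0.059 (adjusted p = 0.80). The value after AICAR was 0.11 (95% interval -0.016 to 0.23, adjusted p = 0.20). Oaz2, at 167 to 228 CPM over all mice, was called in none of the 5 comparisons, with log2 fold changes between -0.11 and 0.17, although 0.16 after AICAR passed (adjusted p = 0.046) in edgeR's fit of those 2 groups alone. DESeq2 called it in none of the 5 either, and its unadjusted p was under 0.05 only for HSALR against FVB after AICAR, where the groups did not overlap.

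Amd1/Amd2 differed between the genotypes under both treatments. In the Amd1 row FVB mice had 153, 156 and 162 CPM after vehicle and 129, 130 and 139 CPM after AICAR. HSALR mice had 76.3, 82.8, 96.7, 75.3 and 72.2 CPM after vehicle and 72.8, 76.4, 70.0, 72.3 and 90.9 CPM after AICAR. Every HSALR mouse was below 100 CPM and every FVB mouse above it. The log2 fold change of the Amd1 row was -0.96 (SE 0.091, adjusted p = 3.03e-06 by edgeR) after vehicle and -0.79 (SE 0.092, adjusted p = 3.34e-05) after AICAR. Without the 6 libraries with Krt14 the values were -1.03 and -0.81, and both still passed. AICAR gave -0.077 (95% interval -0.25 to 0.094, adjusted p = 0.52) in HSALR mice. In FVB mice it gave -0.25 (SE 0.10, adjusted p = 0.13), which did not pass although the groups did not overlap.

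Srm, spermidine synthase, was the least abundant of the 9 measurements and rose after AICAR in both genotypes. FVB mice rose from 7.81, 8.00 and 6.73 CPM after vehicle to 17.1, 14.1 and 16.1 CPM after AICAR. HSALR mice had 7.74, 8.52, 8.70, 9.10 and 8.76 CPM after vehicle and 10.7, 9.66, 15.5, 10.4 and 10.4 CPM after AICAR. The AICAR groups lay above the vehicle groups in both genotypes, and mouse S460 alone among HSALR mice reached the range of the FVB mice after AICAR. The log2 fold change for AICAR was 1.07 in FVB mice (SE 0.15, adjusted p = 3.87e-04 by edgeR). In HSALR mice it was 0.40 (SE 0.11, adjusted p = 0.015), and 0.26 (adjusted p = 0.016) without mouse S460. The value in HSALR mice became 0.31 (adjusted p = 0.20) with the epidermal score as a covariate and 0.55 (adjusted p = 0.19) without the 6 libraries with Krt14.

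The difference between the AICAR effects on Srm was -0.66 (SE 0.18) and did not pass (adjusted p = 0.11 by edgeR's quasi-likelihood test), but passed at -0.80 (adjusted p = 0.0035) without mouse S460 and at -0.67 with DESeq2 (adjusted p = 0.023). After vehicle the genotypes did not differ by the test, at 0.19 (95% interval -0.089 to 0.47, adjusted p = 0.31). After AICAR, Srm was lower in HSALR than in FVB mice, by a log2 fold change of -0.48 (SE 0.13, adjusted p = 0.015). Mouse S460 overlapped with the FVB group, and the call was lost at -0.41 (adjusted p = 0.073) without FVB mouse S447.

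Sms, spermine synthase, was lower in HSALR mice and fell further after AICAR. FVB mice had 101, 98.4 and 93.7 CPM after vehicle and 89.3, 83.7 and 103 CPM after AICAR. HSALR mice had 75.7, 77.5, 72.6, 64.1 and 74.5 CPM after vehicle and 58.8, 58.2, 55.6, 45.0 and 48.6 CPM after AICAR. The 3 ranges, of FVB mice, vehicle-treated HSALR mice and AICAR-treated HSALR mice, did not overlap. The log2 fold change between genotypes was -0.42 (SE 0.091, adjusted p = 0.0029 by edgeR) after vehicle and -0.79 (SE 0.090, adjusted p = 3.26e-05) after AICAR. AICAR gave -0.45 (SE 0.080, adjusted p = 8.17e-04) in HSALR mice, and -0.54 (adjusted p = 0.0041) with the epidermal covariate. In FVB mice it gave -0.090 (95% interval -0.31 to 0.13, adjusted p = 0.61). The difference between these effects was -0.36 (SE 0.13) and did not pass (adjusted p = 0.21). Without the 6 libraries with Krt14, the values were -0.40 (adjusted p = 0.20) between the genotypes after vehicle and -0.51 (adjusted p = 0.061) for AICAR in HSALR mice, so that these calls were lost.

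Smox, which oxidises spermine, had the widest range of the 9 measurements relative to its level. FVB mice had 61.8, 65.6 and 37.1 CPM after vehicle and 145, 119 and 120 CPM after AICAR. HSALR mice had 19.3, 22.1, 34.3, 29.9 and 36.7 CPM after vehicle and 19.5, 26.6, 34.2, 16.8 and 37.3 CPM after AICAR. The highest HSALR mouse after vehicle, at 36.7 CPM, came close to FVB mouse S450 at 37.1 CPM, while the AICAR-treated FVB mice were far above all others. After vehicle the log2 fold change between the genotypes was -0.95 (SE 0.26, adjusted p = 0.014 by edgeR). It missed the threshold without FVB mouse S445 (-0.85, adjusted p = 0.064) or S446 (-0.80, adjusted p = 0.069), and was -1.73 (adjusted p = 0.049) without the 6 libraries with Krt14. After AICAR it was -2.25 (SE 0.26, adjusted p = 3.46e-05), and this call held in all 23 other fits.

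In FVB mice AICAR raised Smox by a log2 fold change of 1.22 (SE 0.30, adjusted p = 0.015 by edgeR's quasi-likelihood test). Without FVB mouse S450 the value was 1.01 (adjusted p = 0.062), and without the 6 libraries with Krt14 it was 1.05 (adjusted p = 0.10). In HSALR mice AICAR gave -0.083 for Smox (95% interval -0.58 to 0.41, adjusted p = 0.83). The difference between the AICAR effects was -1.31 (SE 0.38) and did not pass (adjusted p = 0.12 by edgeR), although its unadjusted p was under 0.05. With DESeq2 the same difference was -1.31 with an adjusted p of 0.018. It was -0.57 (adjusted p = 0.74) without the 6 libraries with Krt14, and in that fit the AICAR effect in HSALR mice turned to 0.47, which was not called.

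Sat1, which acetylates spermidine and spermine, lay between 13.1 and 15.6 CPM in FVB mice after vehicle and between 15.2 and 20.01 CPM after AICAR. In HSALR mice it lay between 17.1 and 23.9 CPM after vehicle and between 19.3 and 25.2 CPM after AICAR. The genotypes did not overlap after vehicle and overlapped after AICAR. The log2 fold change between genotypes was 0.58 (SE 0.12, adjusted p = 0.0021 by edgeR) after vehicle. It was 0.27 (95% interval 0.029 to 0.52, adjusted p = 0.10) after AICAR, and 0.46 (adjusted p = 0.16) after vehicle without the 6 libraries with Krt14. AICAR gave 0.34 (SE 0.13, adjusted p = 0.093) in FVB mice and 0.041 (SE 0.099, adjusted p = 0.80) in HSALR mice.

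A ratio of genes within a library is free of the scaling between libraries, and 4 ratios of genes with opposed roles are given as a description with no test. The ratio of Odc1 to Oaz1 per kilobase, of the enzyme to its antizyme, had a median of 0.24 (range 0.23 to 0.30) in FVB mice after vehicle and 0.47 (0.40 to 0.49) in HSALR mice after vehicle. After AICAR the medians were 0.31 (0.25 to 0.31) in FVB and 0.36 (0.33 to 0.48) in HSALR mice. The genotypes did not overlap under either treatment. The ratio of Azin1 to Oaz1, of the antizyme inhibitor to its target, was 0.13 (0.13 to 0.16) in FVB and 0.24 (0.18 to 0.30) in HSALR mice after vehicle. After AICAR it was 0.14 (0.13 to 0.14) in FVB mice and 0.10 (0.090 to 0.17) in HSALR mice, where mouse S460 held the highest value.

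The ratio of Smox to Sms, of the gene that undoes the last step to the gene that carries it out, was 0.91 (0.59 to 0.99) in FVB mice after vehicle and 2.13 (1.75 to 2.43) after AICAR. In HSALR mice it was 0.70 (0.38 to 0.73) after vehicle and 0.68 (0.50 to 1.14) after AICAR, below all AICAR-treated FVB mice. The ratio of Sat1 to Srm was 2.02 (1.85 to 2.03) in FVB mice after vehicle and 1.14 (0.98 to 1.48) after AICAR. In HSALR mice it was 2.73 (2.08 to 2.84) after vehicle and 2.11 (1.44 to 2.71) after AICAR. The FVB groups did not overlap with each other in this ratio, whereas the HSALR groups did.

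**Figure D3:**
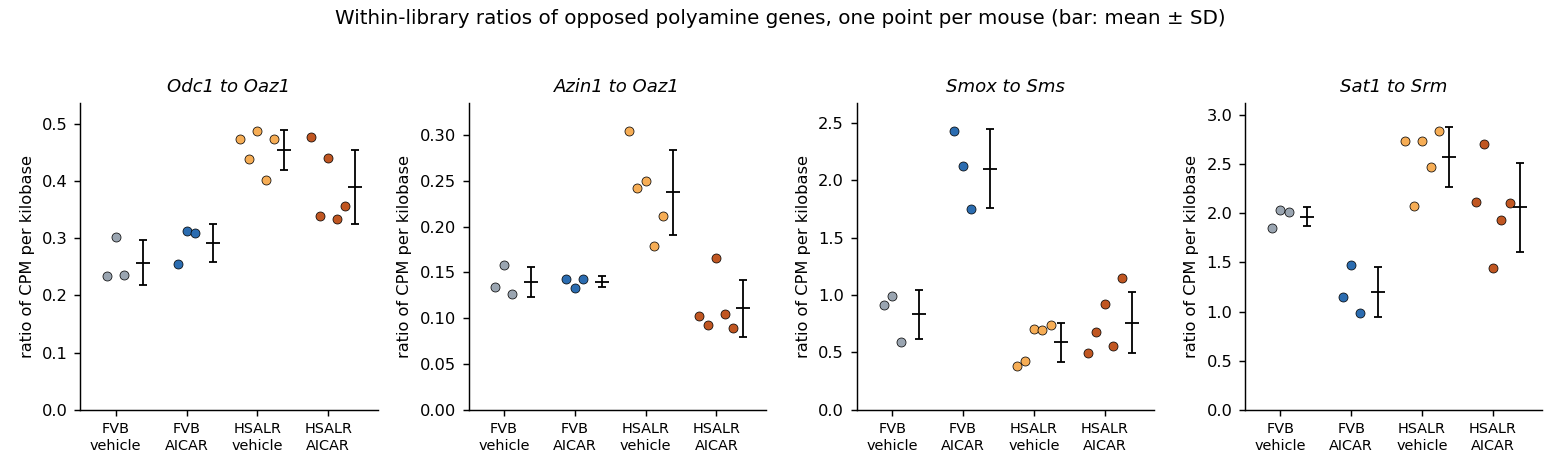
Ratios of CPM per kilobase (vertical axes, from 0) of 4 pairs of polyamine genes, with a point for each mouse and a bar for the mean ± SD. The Odc1 to Oaz1 ratio separates the genotypes, and the Smox to Sms ratio reaches 1.75 or more only in AICAR-treated FVB mice.

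Other genes of polyamine metabolism were examined as a list of 24, of which 20 passed the filter on low counts. This list and the methionine list below were also chosen with earlier results of these data known. After vehicle 3 were called higher and 3 lower in HSALR mice, beside 15.4% higher and 11.5% lower over all genes, so that the list was near the background. Among the called genes, the 3 with the largest log2 fold changes were Agmat, which is named for the conversion of agmatine to putrescine, and the amino acid transporters Slc7a1 and Slc7a2. Agmat was at 0.20 ± 0.049 CPM (SD, n = 3) in FVB and 1.48 ± 0.33 CPM (n = 5) in HSALR mice, with a log2 fold change of 2.89 (SE 0.36, adjusted p = 4.02e-05 by edgeR). Its level was low, but of the 6 calls after vehicle it was the only one to hold in all other fits. The other calls were of Dohh at 0.23, Oat at -0.30 and Atp13a2 at -0.21, the last lost without FVB mouse S446 (-0.20) or S450 (-0.22). In the fit without the 6 libraries with Krt14, Dohh was at 0.11 (adjusted p = 0.51), Oat at -0.24 (adjusted p = 0.15), Atp13a2 at -0.27 (adjusted p = 0.21), Slc7a2 at -1.03 (adjusted p = 0.28) and Slc7a1 at 0.56 (adjusted p = 0.43). Slc7a2 was lower, with a log2 fold change of -0.82 (adjusted p = 0.022) and Slc7a1 higher by 0.57 (adjusted p = 0.032). Slc7a2 missed the threshold without FVB mouse S446 (-0.83) or S450 (-0.76), and Slc7a1 without FVB mouse S445 (0.52), S446 (0.59) or S450 (0.60) or HSALR mouse S452 (0.51), S453 (0.55) or S458 (0.56).

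After AICAR, 2 genes of the list were called higher and 2 lower in HSALR against FVB mice, again near the background of 12.2% and 9.64%. Agmat was higher by a log2 fold change of 1.94 (SE 0.36, adjusted p = 0.0014 by edgeR) and Azin2, which encodes a second antizyme inhibitor, by 0.55 (adjusted p = 0.013), or by 0.42 (adjusted p = 0.069) without FVB mouse S449. Atp13a2, a lysosomal polyamine exporter, was lower at -0.28 (adjusted p = 0.0049), and so was Slc3a2 at -0.21 (adjusted p = 0.035). The call of Slc3a2 was lost with the epidermal covariate (-0.20, adjusted p = 0.062) and without FVB mouse S447 (-0.20), S448 (-0.22) or S449 (-0.21) or HSALR mouse S455 (-0.19) or S463 (-0.20).

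AICAR in HSALR mice gave 2 higher genes, Slc7a2 and Slc3a2, and 3 lower genes, Sat2, Agmat and Slc22a2, beside 13.7% higher and 13.0% lower over all genes. Slc7a2 rose from a mean of 84.1 ± 17.1 to 213 ± 67.7 CPM (SD, n = 5 each), a log2 fold change of 1.34 (SE 0.22, adjusted p = 4.88e-04 by edgeR). Its groups overlapped, with 104 CPM as the highest value after vehicle and 98.1 CPM as the lowest after AICAR. The groups also overlapped for Sat2, Agmat and Slc22a2. Agmat fell, at -0.88 (adjusted p = 0.023), and so did Slc22a2, a transporter of organic cations, at -1.47 (adjusted p = 0.034). Slc22a2 was below 0.75 CPM in every mouse of these groups, and its value was -0.83 (adjusted p = 0.13) without HSALR mouse S452 of the vehicle group. The call was also lost without S458 of the vehicle group (-1.37) or S454 (-1.47), S455 (-1.36), S462 (-1.54) or S463 (-1.42) of the AICAR group. Agmat missed the threshold without S453 of the vehicle group (-0.84) or S454 (-0.83), S462 (-0.78) or S463 (-0.76) of the AICAR group. With the epidermal covariate 2 genes of the list were called, beside 2065 of 15487 genes, and without the 6 libraries with Krt14 Slc3a2 alone was, beside 899 of 15584 genes. In the second fit Slc7a2 was at 1.61 (adjusted p = 0.080) and Agmat at -1.01 (adjusted p = 0.23).

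In FVB mice AICAR gave 1 higher gene, Slc3a2, and 1 lower gene, Oat, beside 8.40% and 4.77% over all genes. Slc3a2, the heavy chain shared by several amino acid transporters, rose from 30.7 ± 1.72 to 41.0 ± 0.51 CPM (SD, n = 3 each), a log2 fold change of 0.42 (SE 0.074, adjusted p = 0.0022 by edgeR). Oat, ornithine aminotransferase, fell from 269 ± 19.3 to 219 ± 5.85 CPM (SD, n = 3 each), at -0.30 (SE 0.063, adjusted p = 0.0063). The call of Oat was lost with the 2 groups fitted alone (-0.31, adjusted p = 0.054) and without the 6 libraries with Krt14 (-0.23, adjusted p = 0.092). None of the 20 was called by edgeR in the difference between the AICAR effects, where 5 had an unadjusted p under 0.05, beside 2324 of 15487 genes. In that test DESeq2 called 536 of 15487 genes and of this list Oat (0.32, adjusted p = 0.0094) and Slc7a2 (1.40, adjusted p = 0.0045). The medians of the list were 0.036, -0.014, 0.038 and -0.026 on the log2 scale for genotype after vehicle, AICAR in HSALR mice, AICAR in FVB mice and genotype after AICAR, beside 0.0097, -0.020, -0.0084 and 0.0037 over all genes.

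The methionine cycle supplies S-adenosylmethionine to Amd1, and the salvage pathway returns the methylthioadenosine that spermidine and spermine synthesis release. Of 17 genes listed, 15 were tested. Ahcyl1 and Ahcyl2 are named for their likeness to Ahcy, and whether they act in the cycle was not tested. Mtap, which opens the salvage of methylthioadenosine, was lower in HSALR mice under both treatments. It was at 17.6 ± 0.99 CPM in FVB and 11.4 ± 0.90 CPM in HSALR mice after vehicle (SD, n = 3 and n = 5) and at 17.3 ± 1.57 and 9.98 ± 0.73 CPM after AICAR. The log2 fold changes were -0.63 (SE 0.081, adjusted p = 4.93e-05 by edgeR) and -0.80 (SE 0.081, adjusted p = 1.02e-05). The first was -0.54 (adjusted p = 0.070) without the 6 libraries with Krt14. After vehicle 3 of 15 were called lower and 0 higher with edgeR, where 2 were higher at an unadjusted p under 0.05, beside 11.5% lower and 15.4% higher over all genes. The others were Adi1 at -0.30 (adjusted p = 0.013) and Ahcyl1 at -0.26 (adjusted p = 0.0055). The call of Adi1 was lost without FVB mouse S445 (-0.27, adjusted p = 0.064), and without the 6 libraries with Krt14 both were lost, Adi1 at -0.33 (adjusted p = 0.26) and Ahcyl1 at -0.12 (adjusted p = 0.57). After AICAR Mtap alone was called, 1 of 15 beside 9.64% lower and 12.2% higher over all genes.

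AICAR gave 5 higher (Adi1, Mtr, Ahcyl2, Ahcyl1 and Mat2b) and 1 lower (Mat2a) of the 15 genes in HSALR mice, beside 13.7% and 13.0% over all genes. Of these, Mat2b (0.12, adjusted p = 0.038 by edgeR) lost its call in 13 of 23 other fits, among them library totals (0.046, adjusted p = 0.56) and the omission of FVB mouse S448 (0.12) or of HSALR mouse S451 (0.11), S453 (0.12), S458 (0.11), S455 (0.12), S460 (0.12), S462 (0.12) or S463 (0.12). Ahcyl1 (0.17, adjusted p = 0.024 by edgeR) lost it in 7, among them library totals (0.094, adjusted p = 0.32) and the omission of HSALR mouse S452 (0.16), S459 (0.15), S462 (0.15) or S463 (0.16). Adi1, an enzyme of the last steps of methionine salvage, rose from 68.5 ± 4.46 to 98.9 ± 10.9 CPM (SD, n = 5 each), a log2 fold change of 0.53 (SE 0.071, adjusted p = 9.40e-05 by edgeR). Mtr, methionine synthase, rose by 0.51 (adjusted p = 0.0027). Mat2a, which makes S-adenosylmethionine, fell, at -0.46 (adjusted p = 0.036). The call of Mat2a was lost without the mice S452 (-0.45), S453 (-0.41) or S458 (-0.48) of the vehicle group or S454 (-0.37), S455 (-0.36) or S462 (-0.48) of the AICAR group. With the epidermal covariate 2 of the 15 were called, beside 2065 of 15487 genes, and without the 6 libraries with Krt14 0 were, beside 899 of 15584 genes. In the second fit Adi1 was at 0.52 (adjusted p = 0.060) and Mtr at 0.51 (adjusted p = 0.19). In FVB mice 2 genes were called higher, beside 8.40% over all genes: Ahcyl2 at 0.41 (SE 0.072, adjusted p = 0.0021) and Adi1 at 0.32 (SE 0.091, adjusted p = 0.033). Adi1 in FVB mice missed the threshold when S445 (0.35), S446 (0.32), S450 (0.28), S448 (0.32) or S449 (0.27) was left out, with library totals (0.27, adjusted p = 0.065) and without the 6 libraries with Krt14 (0.28, adjusted p = 0.21). None of the 15 was called in the difference between the AICAR effects with edgeR or DESeq2, and 1 had an unadjusted p under 0.05 in edgeR's fit. The medians were -0.076, 0.12, 0.044 and -0.015 on the log2 scale in the order used for the first list.

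**Figure D4:**
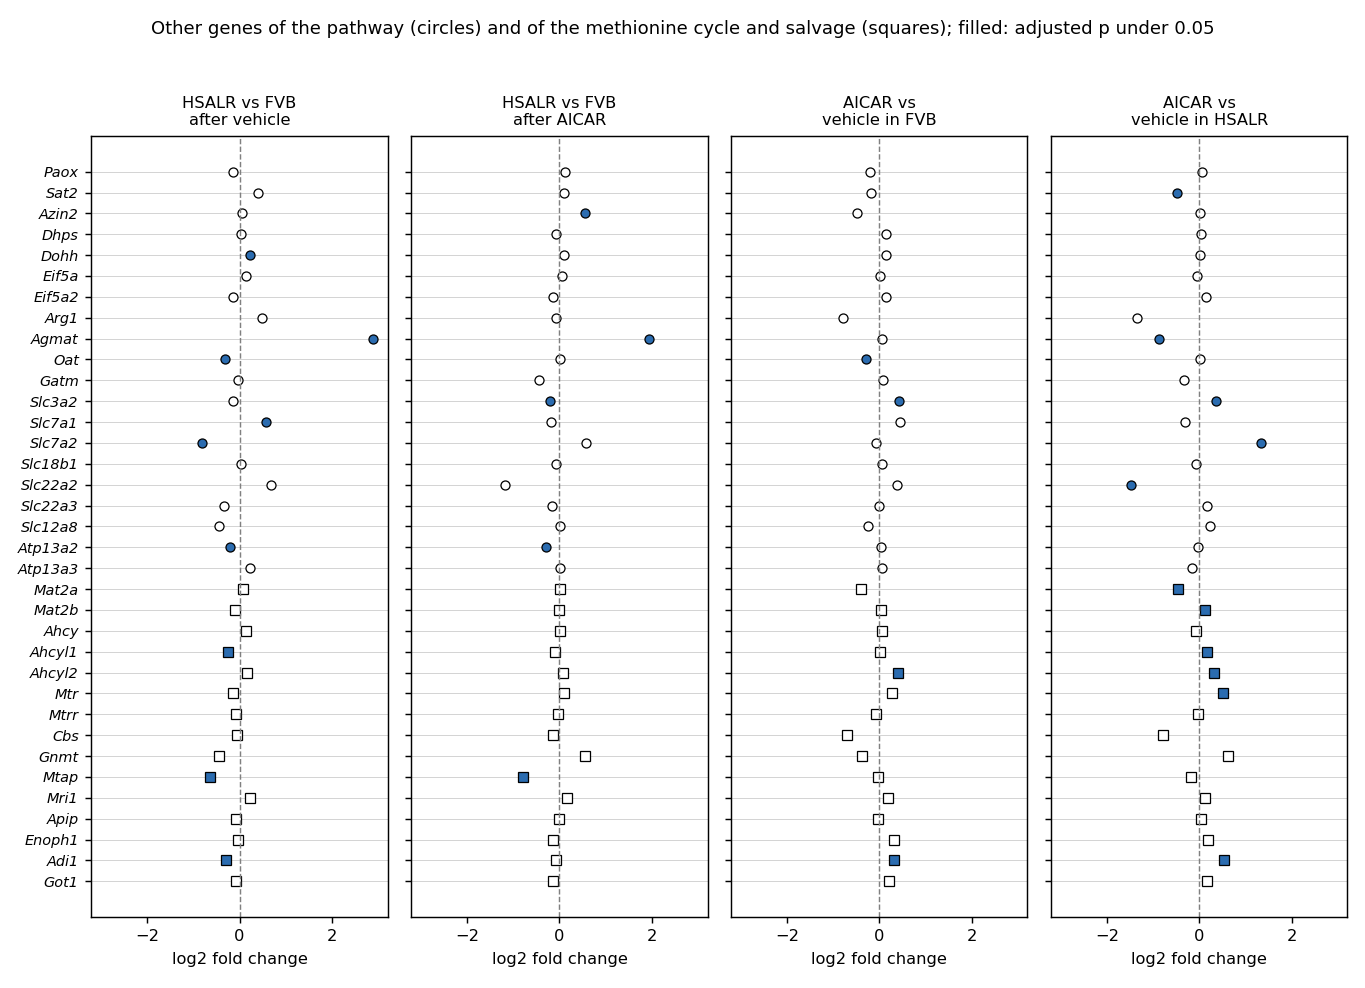
Log2 fold changes (horizontal axes) of 20 further genes of polyamine metabolism (circles) and 15 genes listed for the methionine cycle and salvage (squares) in 4 comparisons, with filled symbols for an adjusted p under 0.05. Agmat stands farthest to the right between genotypes, at 2.89 after vehicle and 1.94 after AICAR, and Mtap is filled to the left in both of these comparisons.

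The genes outside the 10 members whose pattern was most like that of Smox and of Azin1, the members with the largest log2 fold changes, were found by Pearson's correlation of log2 normalised CPM over the 16 libraries. The points share groups, libraries and scaling, and no p is given. For Smox, Sel1l2 (r = 0.94) and Atp10d (r = 0.93) came first. Sel1l2 had group means of 0.52 CPM in FVB mice after vehicle, 0.75 CPM in FVB mice after AICAR, 0.31 CPM in HSALR mice after vehicle and 0.28 CPM in HSALR mice after AICAR. For Azin1 they were Mgam (r = 0.92), Traf3 (r = 0.91) and Zfp593 (r = 0.91). Traf3 was at 30.8 and 32.1 CPM in FVB mice after vehicle and AICAR and at 49.0 and 29.6 CPM in HSALR mice.

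RefSeq windows of 300 bases around each annotated start were at hand for 8 of the 10 genes, as 9 windows of GRCm38.p6. Both strands were searched for the E box CACGTG and for the cAMP response element TGACGTCA, motifs bound by transcription factors that are known to act on Odc1 and on many metabolic genes. Neither motif contains the other. The E box was in 1 of the 9 windows, beside 7.15% of all 32851 windows, and the cAMP response element was in 0 of 9, beside 1.79% of all windows. The E box was found in the more distal of the Sms windows, 190 bases before the start annotated there, and is in capitals in these 56 bases (chrX:157492453-157492508, minus strand).
Sms E box: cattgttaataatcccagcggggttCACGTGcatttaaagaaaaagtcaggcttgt
The absence of these letters from the other windows says nothing about the factors.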

How the data were processed

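The study sequenced polyadenylated RNA from gastrocnemius muscle of 16 mice, single-end, with a stranded TruSeq kit. Per the study's methods and processing notes, the authors aligned reads to mm10 with STAR 2.5.2a, kept 1 location for reads with several, and with QuasR counted reads that began in an exon of RefSeq mRNAs. Whether strand was used is not given in the sources used here. The deposited values are raw counts per gene for 24454 Entrez identifiers, with a gene length, and 24374 identifiers were named from RefSeq (GRCm38.p6). Sequences came from RefSeq and GENCODE vM21.

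Counts, 64890014 to 81987726 per library, were fitted with edgeR 4.0.16 under R 4.3.3 (TMM, filterByExpr over the 4 groups, glmQLFit, glmQLFTest, 1 mean per group, Benjamini-Hochberg over 15487 genes, adjusted p under 0.05). The test was checked on simulated data. Alternatives were RLE and library-total scaling, DESeq2 1.42.0, no filter, only the groups compared, an epidermal covariate (log2 of the summed CPM of 8 markers plus 0.01), Amd1 and Amd2 added together, and leaving out each mouse. Leaving out libraries with Krt14 above 1 CPM was chosen after the data were seen. The members and lists were chosen with earlier results of these data known. All 10 members are named, with up to 3 called genes of the largest log2 fold change per list and comparison, and the 3 genes most correlated with each of 2 members (prior count 2). For 1 of these members, the third such gene is not reported here. Other called genes of the lists, Krt14 and Oaz1-ps are named beyond this rule and were chosen after their values were seen. Libraries of a group differed by more than sampling noise (chi-square per degree of freedom 24.0 to 134). Levels carry counting error and differences between mice. The labels name a mouse for each library, and p-values measure the spread between these mice.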

Additional observations from a re-analysis of the deposited data

Results flagged for a closer look

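Among 26 sets of 5 HSALR mice (9 gene levels and 4 ratios in the vehicle and AICAR groups), 4 had a mouse that stood apart from the others by more than 0.71 of the range of the group, the 95% limit of Dixon's test for 5 values. Chance alone gives about 1 in 20. In HSALR mice after AICAR, mouse S460 had 93.0 CPM of Azin1, where the other 4 mice had 55.1 to 60.5 CPM, and 15.5 CPM of Srm, where the others had 9.66 to 10.7 CPM. Its ratio of Azin1 to Oaz1 was 0.17, beside 0.090 to 0.10 in the others. Oaz2 was at 204 CPM in mouse S455, beside 188 to 191 CPM in the others. Groups of 3 mice were not examined in this way.

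The AICAR effect on Azin1 differed between the genotypes by a log2 fold change of -1.20 (HSALR minus FVB) in edgeR's test of the difference itself. This difference passed the threshold in the fit with all 16 libraries and lost it when any of 10 of the mice was left out.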

How the results depend on the processing

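No paired analysis was possible because mice of different groups share no identifier. Of 50 results (10 genes in 5 comparisons), 29 kept their direction and call in every alternative fit. The calls that did so were Odc1, Azin1 and Amd1/Amd2 between genotypes after vehicle, Azin1 for AICAR in HSALR mice, Srm for AICAR in FVB mice, and Odc1, Amd1/Amd2, Sms and Smox between genotypes after AICAR. Counts in this paragraph take Amd1 and Amd2 as 2 genes, although they are 1 measurement. Both kept direction and call in all 5 comparisons. Without the 6 libraries with Krt14 above 1 CPM, which leaves 10 libraries, the members called fell from 8 to 5 between genotypes after vehicle, from 3 to 1 for AICAR in HSALR mice, from 2 to 1 for AICAR in FVB mice and from 1 to 0 in the difference of the AICAR effects. In that fit the direction turned for Oaz2 (-0.067) and Srm (-0.036) between genotypes after vehicle, for Oaz2 (0.086) and Smox (0.47) for AICAR in HSALR mice, and for Oaz1 (0.022) in the difference, none of them called. With library totals, Oaz1 (-0.055) and Sat1 (-0.036) turned for AICAR in HSALR mice, also uncalled. DESeq2 called 3 members in the difference (Azin1, Srm and Smox) in place of 1.

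Leaving out each mouse gave 1 to 2 called members for AICAR in FVB mice (1 without FVB mouse S450) and 0 to 2 in the difference (2 without S460). Between these fits, AICAR in HSALR mice ranged from -0.0060 to 0.044 for Oaz1, from -0.080 to 0.0018 for Oaz2, from -0.23 to 0.047 for Smox and from -0.025 to 0.088 for Sat1. Over all genes, calls between genotypes after vehicle went from 4169 to 904 without the Krt14 libraries. For AICAR in HSALR mice they went from 4121 to 2065 with the epidermal covariate and 899 without those libraries. For AICAR in FVB mice they went from 2039 to 1164 with the groups compared alone, 697 without those libraries, 1214 without S445, 1344 without S448 and 1143 without S449. Between genotypes after AICAR they went from 3379 to 2214 without S447. In the difference they went from 107 to 536 with DESeq2, 58 with the covariate, 0 without those libraries, and between 15 (without S448) and 371 (without S460). The causes were not tested. Amd1 and Amd2 added together gave the same calls. With library totals the median of all genes lay at most 0.098 from 0 on the log2 scale. Every member had at least 495 reads in each library.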
